A study of Mus musculus with 6 samples.

Results

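The genes of the Par, atypical PKC and Scribble complexes, which set up cell polarity, were examined in hematopoietic stem cells (HSC) with and without p190-B. The 10 genes were Pard3, Pard6a, Pard6b, Pard6g, Prkci, Prkcz, Llgl1, Llgl2, Scrib and Dlg1, and every non-control probe that carried 1 of these names was taken. This gave 17 probes of 10 genes, out of 39429 probes on the array. Each probe has 60 bases and was printed in a single spot.

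RNA came from LSK-SLAM cells (Lin- c-Kit+ Sca-1+ CD150+ CD48-), the HSC-enriched fraction of mouse marrow. These were sorted from secondary recipients (2T), which had received marrow of primary recipients. The donor cells were fetal liver cells of p190-B-/- embryos or of wild type (WT) littermates, because germline loss of p190-B, a RhoGAP encoded by Arhgap5, is lethal before birth. The 2 groups were 2T-WT and 2T-p190-B-/-, with 3 one-colour Agilent arrays each.

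In both groups, the primary and the secondary hosts were lethally irradiated CD45.1+ congenic mice. The primary hosts also received CD45.1+ competitor marrow, while the donors were CD45.2+ on a C57BL/6J background. The deletion is thus carried by donor-derived blood cells and not by the host. Neither the labels nor the microarray methods name a CD45.2 gate for these RNA samples, and the share of donor-derived cells in each was not measured on the arrays. The age and sex of the recipients are not given in the sources used here. A figure legend describes LSK-SLAM cells from independent 2T mice of each group, isolated on separate occasions. Whether an array holds cells of a single mouse or of several is not stated there or in the labels.

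Cell polarity rests on protein complexes that exclude one another at the cell cortex. In the Par complex, the scaffold proteins Par3 and Par6 hold an atypical protein kinase C (aPKC), which is switched on through Par6 by the small GTPase Cdc42. In the Scribble module, Scribble, Discs large and Lethal giant larvae occupy the opposite domain, and aPKC phosphorylates Lethal giant larvae to drive it from the cortex. In dividing HSC, these proteins have been studied for the unequal sharing of fate determinants such as Numb between daughter cells, and p190-B acts upstream as a brake on small GTPases.

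An array reads only the stretch of the transcript that its probe matches, so the sequences of 6 probes that lie in coding sequence are given for the genes in which the position of the probe matters to the values. They are the target-strand letters as the scanner files list them, 5′ to 3′ and in lower case, with no base marked. The first belongs to the Pard3 probe annotated to the NM_001013581 transcript, the second to the sole Pard6a probe, and the third to the sole Pard6b probe, within the PB1 domain that binds aPKC. Both Prkcz probes lie near opposite ends of the coding sequence, in the PB1 domain and close to the C-terminus. The last one lies in the guanylate kinase-like domain of Dlg1.
Pard3 A_55_P1985012: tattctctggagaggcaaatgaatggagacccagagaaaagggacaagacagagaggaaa
Pard6a A_51_P456366: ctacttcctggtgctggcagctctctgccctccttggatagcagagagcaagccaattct
Pard6b A_51_P374101: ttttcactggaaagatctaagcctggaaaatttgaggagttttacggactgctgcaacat
Prkcz A_52_P600822: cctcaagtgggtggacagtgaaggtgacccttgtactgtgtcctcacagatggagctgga
Prkcz A_55_P1987761: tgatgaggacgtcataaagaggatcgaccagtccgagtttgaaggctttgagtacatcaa
Dlg1 A_51_P101858: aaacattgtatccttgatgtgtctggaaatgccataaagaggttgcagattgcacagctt

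Values are given as a log2 relative signal, that is, the processed signal divided by the 75th percentile of its own array, on a log2 scale. On this scale, 0 is the brightness of the 75th percentile and a step of 1 is a doubling. Since hybridization differs between probes, levels are compared between arrays for 1 probe and never between probes. A probe was tested if the scanner software called it well above background on 3 or more arrays.

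The 75th percentile ranged from 53.9 to 227 in 2T-WT and from 252 to 385 in 2T-p190-B-/-, so that all 2T-p190-B-/- arrays were brighter. On a brighter array, a signal near background is divided by a larger number and so stands lower on this scale. The 4 member probes above background on no array differed by -0.76 to -1.60 (2T-p190-B-/- minus 2T-WT). With quantile normalization in place of this scaling, the median difference of all probes tested was -0.11 in place of -0.33. Among member probes dim on some arrays, Dlg1 A_51_P101858 then differed by -0.81 in place of -1.11, and Pard6g by -0.50 in place of -0.52. For probes above background on no array, the effect of the scaling was not tested. Between 48.1% and 72.7% of spots were well above background. Across probes printed in 4 or more spots, the median SD was 0.21 between spots of 1 array but 0.97 between arrays of a group. The spots of an array share its RNA, labelling and hybridization, so this sets the spread between arrays, whatever its source, against spot noise only. The arrays came from 3 slides: 2T-WT replicate 1 was alone on slide 1, 2T-p190-B-/- replicate 3 was alone on slide 3, and the other 4 shared slide 2. The probe of Arhgap5 itself rose above background on 1 array only (2T-p190-B-/- replicate 2), and so could not check the genotype. Among the sort markers, Kit was above background on 5 arrays and Ly6a, which encodes Sca-1, on all 6. Slamf1, which encodes CD150, was above background on no array, whereas Cd48 was above it on all 6.

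In 2T-WT replicate 3, the B-cell gene Cd79a stood at 9.47, against -4.89 to -1.65 on the other arrays. The summed relative signal of the 9 B-cell markers listed, of which 8 were tested, was 726 on that array, 6.24 and 6.34 in the other 2T-WT and 5.15 to 7.16 in 2T-p190-B-/-. Of the 8, 6 had their highest value on that array, while Cd79b and Vpreb3 did not. Epcam, a gene of epithelial cells, stood at 3.90 on that array against -2.44 to -0.97, but only 3 of the 9 epithelial and stromal markers tested were highest there. The summed signal of the 12 epithelial and stromal markers was 30.0 on that array, 22.4 and 26.7 in the other 2T-WT and 8.38 to 36.8 in 2T-p190-B-/-. High sums on that array, which had the lowest 75th percentile, were not limited to B-cell markers. It was also highest for the neutrophil (2089 against 367 to 915), T-cell (140 against 31.3 to 85.4) and HSC markers (148 against 32.2 to 72.0). Each of these sums came mostly from a single bright probe. For red cell precursors it was lowest (1.43 against 2.69 to 4.77). For each member probe tested, the difference is therefore also given without 2T-WT replicate 3. In such whole-population RNA, fewer cells of a type and less RNA per cell cannot be told apart.

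Detection separated the 10 genes before any comparison of genotypes. Pard3, Pard6a, Pard6g, Prkci, Prkcz, Llgl2 and Dlg1 had at least 1 probe that could be tested. Pard6b, Llgl1 and Scrib had none. Of the 17 probes, 6 were above background on all 6 arrays, 5 on 3 to 5 arrays, 2 on 1 or 2 arrays and 4 on no array. Thus 64.7% of the member probes were tested, against 63.8% of all probes on the array. Per array, 9, 11 and 8 member probes were above background in 2T-WT, against 12, 9 and 10 in 2T-p190-B-/-, and these ranges overlapped.

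**Figure D1:**
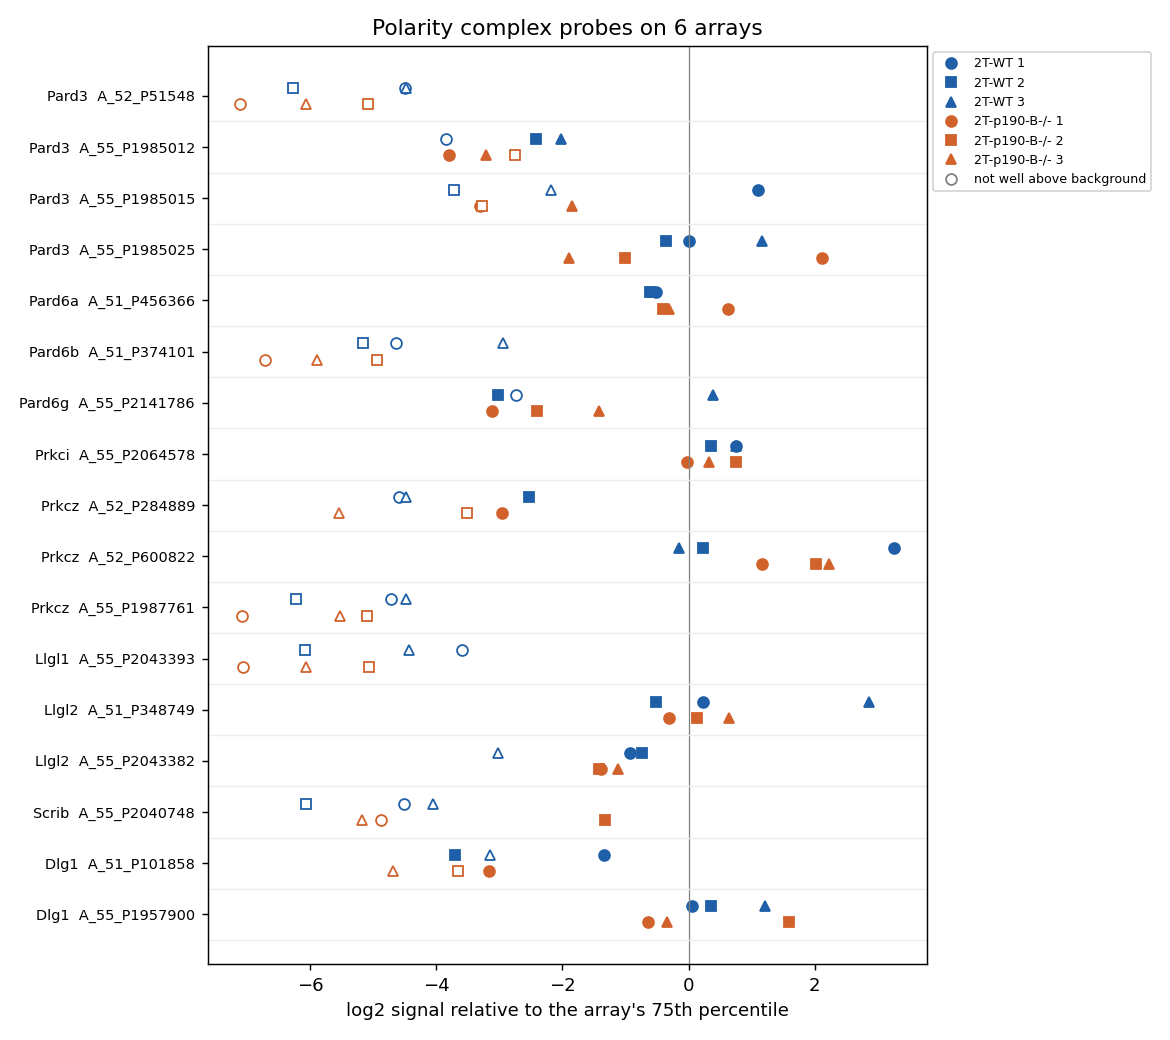
Log2 signal relative to the 75th percentile of each array (x axis) for all 17 member probes, with a blue symbol for each 2T-WT array and an orange one for each 2T-p190-B-/- array, unfilled where the probe was not well above background. For Pard6a, the 3 2T-p190-B-/- values (-0.41 to 0.63) lie above the 3 2T-WT values (-0.61 to -0.51), and for the other 10 probes tested the groups overlap.

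Loss of p190-B was not followed by a detectable difference in any of the polarity complex probes. In limma, 0 of the 11 member probes had an adjusted p under 0.05, as did 0 of the 25159 probes tested (0%). An unadjusted p under 0.05 was reached by 0 of 11 members, against 6.57% of all probes. The threshold that heads the study's supplementary gene lists, a 2-fold difference with an unadjusted p of at most 0.05, was also passed by 0 of 11 members, against 6.41% of all probes. Those 6.41% comprise 2.31% in which 2T-p190-B-/- was higher and 4.1% in which it was lower. A difference of 2-fold or more, whatever its p, was seen for 2 members (Pard3 and Dlg1, 1 probe each) and for 43.8% of all probes. Differences between group means (2T-p190-B-/- minus 2T-WT) were above 0 for 3 member probes and below 0 for 8, over a range of -1.21 to 0.69. Among all probes tested, 60.8% were below 0, 39.2% were above it and the median was -0.33. Relative to that median, which has 50% of probes below it by construction, 7 member probes were lower and 4 were higher. The median member difference was -0.49, or -0.16 from the median of all probes, and without 2T-WT replicate 3 it was -0.08, or 0.16 from the median of all probes. Leaving out 2T-p190-B-/- replicate 1 or replicate 3 also put the members above that median, by 0.22 and 0.17. The side of that median on which the members lay thus changed with the arrays used.

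The arrays bound these differences only loosely. The limma standard errors of the member differences ran from 0.66 to 1.23 log2 units, and the adjusted p-values of the same limma fit from 0.676 to 0.931. A 2-fold difference in at least 1 direction lay within the 95% interval of every member probe tested. Consequently, these values do not show that the genes were expressed alike in both genotypes.

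**Figure D2:**
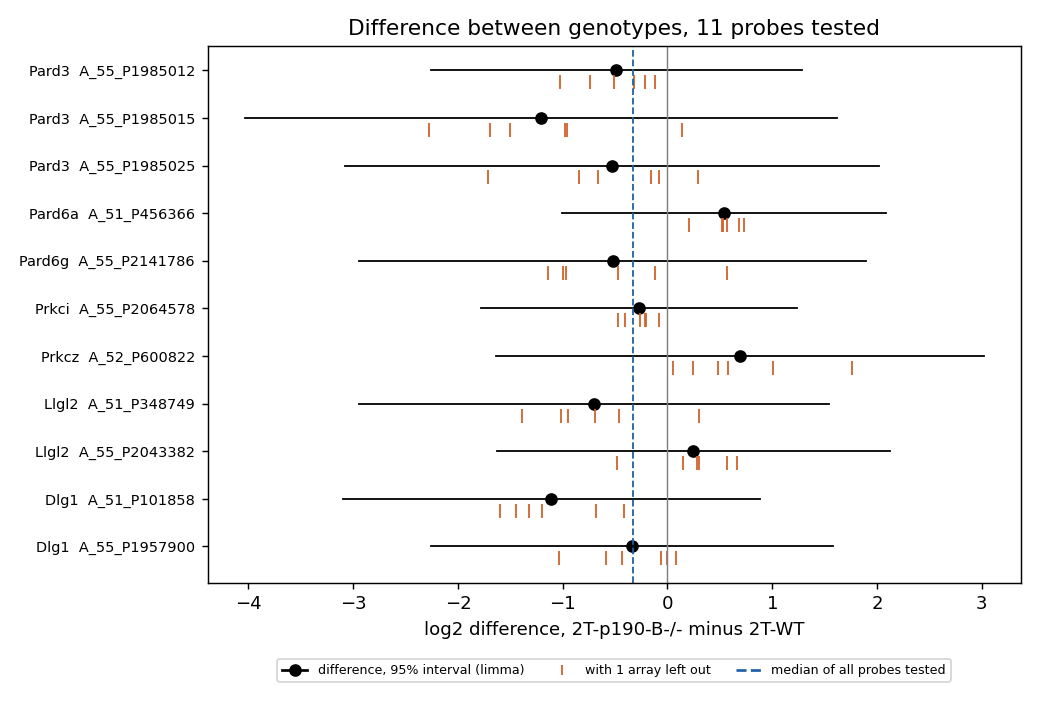
Difference in log2 relative signal, 2T-p190-B-/- minus 2T-WT, for each member probe tested, with the limma 95% confidence interval as a bar (n = 3 arrays in each group), the values with 1 array removed as orange marks and the median of all probes tested, -0.33, as a dashed line. Every interval includes 0, and the points range from -1.21 to 0.69.

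Among the scaffolds of the Par complex, Pard6a was higher in all 3 2T-p190-B-/- samples than in any 2T-WT sample, but by less than the test could resolve. Pard6a encodes 1 of the 3 Par6 proteins, the adaptors between Par3, aPKC and active Cdc42, and its probe lies on chromosome 8 (chr8:108227155-108227214, + strand, mm9). In 2T-WT HSC, the log2 relative signal was -0.51, -0.61 and -0.59 (mean -0.57 ± 0.05 SD, n = 3). In 2T-p190-B-/- HSC, it was 0.63, -0.41 and -0.31 (mean -0.03 ± 0.57 SD, n = 3). All 3 2T-p190-B-/- arrays were above all 3 2T-WT arrays, and Pard6a was the 1 member probe of 11 for which the groups did not overlap. Among all probes tested, 15.9% did not overlap, 4.47% with 2T-p190-B-/- higher. The difference of 0.54 (SE 0.67, 95% interval -1.01 to 2.08) had a limma adjusted p of 0.798, and the exact two-sided permutation p of 0.1 is the smallest that 3 against 3 arrays allow. It was 0.21 without 2T-p190-B-/- replicate 1, the array with the highest value, and 0.53 without 2T-WT replicate 3. With another background correction (normexp), it was 0.27 and the groups overlapped.

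Pard3 encodes the scaffold Par3, which recruits Par6 and aPKC to the cortex. Its 4 probes lie on chromosome 8 with gaps of up to 209625 bases, and the 3 that were tested did not act as 1 measurement. Only A_55_P1985025 (chr8:129925900-129925959, + strand) was above background on every array. Its log2 relative signals were 0.00, -0.36 and 1.16 in 2T-WT and 2.11, -1.001 and -1.90 in 2T-p190-B-/-. The 2T-p190-B-/- arrays thus held both the highest and the 2 lowest values of this probe. The difference was -0.53 (SE 1.11), and it was -0.08 without 2T-WT replicate 3. Leaving out 2T-p190-B-/- replicate 1 gave -1.71, and leaving out 2T-p190-B-/- replicate 3 gave 0.29. It was 0.16 within slide 2, which held both genotypes.

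The Pard3 probe A_55_P1985012 (chr8:129950493-129950552, + strand) was above background on 4 arrays. It stood at -3.84, -2.41 and -2.03 in 2T-WT and at -3.80, -2.75 and -3.21 in 2T-p190-B-/-. The groups overlapped, since 2T-WT replicate 1 had the lowest value of all. The difference was -0.49 (SE 0.77). It was -0.12 without 2T-WT replicate 3 and -1.03 without 2T-WT replicate 1. Leaving out 2T-p190-B-/- replicate 1 gave -0.22, and within slide 2 it was -1.05. With normexp, it was -1.21 and passed the 2-fold threshold of the gene lists.

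The third Pard3 probe, A_55_P1985015 (chr8:130134671-130134730, + strand), had the largest difference of the 11 member probes, -1.21 (SE 1.23). It stood at 1.101, -3.72 and -2.18 in 2T-WT and at -3.31, -3.27 and -1.85 in 2T-p190-B-/-, and was above background on 3 arrays. 2T-WT replicate 1 stood above all other arrays, and the difference was 0.14 without it and -1.50 without 2T-WT replicate 3. The last Pard3 probe, A_52_P51548, lies 854 bases further along the chromosome and was above background on no array, with processed signals of 2.42 to 9.43. Over the 6 arrays, Pearson's r between the 3 Pard3 probes that were tested ran from -0.47 to -0.11, given as a description of values that share the same libraries.

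Pard6g and Pard6b encode the other Par6 proteins. The Pard6g probe (chr18:80316044-80316103, + strand) stood at -2.73, -3.02 and 0.39 in 2T-WT and at -3.11, -2.41 and -1.41 in 2T-p190-B-/-. One 2T-WT array, replicate 3, was highest, and the remaining 5 lay within -3.11 to -1.41. The difference was -0.52 (SE 1.05) with all arrays and 0.57 without 2T-WT replicate 3, the array with the high Cd79a. Whether the Pard6g value of that array goes with its Cd79a was not tested. Pard6b (chr2:167912863-167912922, + strand) was above background on no array, with processed signals of 3.64 to 10.45.

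The 2 atypical PKC genes differed in how closely the arrays of a group lay together. Prkci encodes PKC-iota, the kinase of the Par complex, and its probe lies on chromosome 3 (chr3:30951503-30951562, + strand). Its log2 relative signals were 0.75, 0.36 and 0.76 in 2T-WT and -0.03, 0.75 and 0.33 in 2T-p190-B-/-. All 6 arrays lay within 0.79 log2 units, the narrowest range of the 11 member probes. The difference was -0.27 (SE 0.66, 95% interval -1.78 to 1.23), with a limma adjusted p of 0.900 and an exact two-sided permutation p of 0.2. Relative to the median of all probes, Prkci was thus slightly higher, its difference was -0.21 without 2T-WT replicate 3, and with normexp it was 0.04.

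Prkcz encodes PKC-zeta, and a shorter transcript of the gene, which is known from brain as PKM-zeta, leaves out the regulatory N-terminal part with the PB1 domain. The probe A_52_P600822 spans an intron (chr4:154730589-154731612, - strand), and the files assign it to the full-length transcript alone. It was above background on every array, at 3.27, 0.23 and -0.15 in 2T-WT and at 1.17, 2.02 and 2.22 in 2T-p190-B-/-. The highest value of all was in 2T-WT replicate 1, while the other 2T-WT arrays were the 2 lowest. The difference of 0.69 (SE 1.01, 95% interval -1.64 to 3.02) had a limma adjusted p of 0.833 and an exact two-sided permutation p of 0.6. It was 1.76 without 2T-WT replicate 1, where it passed the 2-fold threshold of the gene lists, but 0.25 without 2T-WT replicate 2 and 0.05 without 2T-WT replicate 3. Within slide 2, it was 1.56.

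Both other Prkcz probes lie toward the end of the transcript, and neither could be tested. A_55_P1987761 (chr4:154636587-154636816, - strand), which the files assign to the full-length and the short transcript, was above background on no array, with processed signals of 2.42 to 9.37. A_52_P284889 (chr4:154634335-154634394, - strand) was above background on 2 arrays. Its processed signals were 5.14, 39.3 and 2.42 in 2T-WT and 49.8, 28.1 and 5.42 in 2T-p190-B-/-. One array of each genotype, 2T-WT replicate 2 and 2T-p190-B-/- replicate 1, was above background here. Prkcz was therefore read on all arrays only through its 5′ coding sequence.

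**Figure D3:**
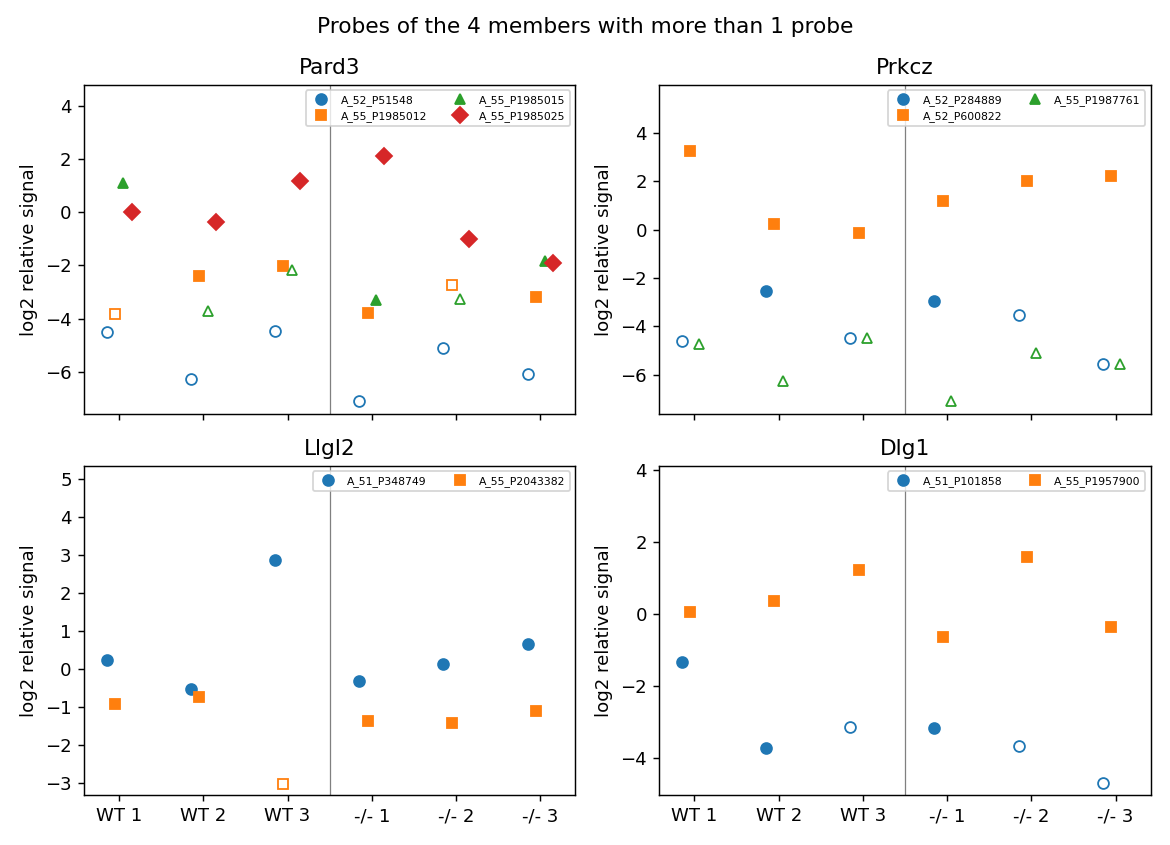
Log2 relative signal (y axis) on each array for the probes of Pard3, Prkcz, Llgl2 and Dlg1, the 4 members with more than 1 probe, with filled symbols where the probe was well above background. Tested probes of 1 gene do not follow each other from array to array. For the 2 Llgl2 probes (r = -0.91 over 6 arrays), 2T-WT replicate 3 is the highest array of 1 and the lowest of the other. On that array, the other probe was not above background.

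The Scribble module was read mainly through Llgl2 and Dlg1. Llgl2 encodes a Lethal giant larvae protein, a substrate of aPKC. Its probe A_51_P348749 (chr11:115716565-115716836, + strand) was above background on every array, at 0.23, -0.52 and 2.86 in 2T-WT and at -0.31, 0.13 and 0.65 in 2T-p190-B-/-. The value of 2T-WT replicate 3 was above all others, and the remaining 5 lay within -0.52 to 0.65. The difference was -0.70 (SE 0.98, 95% interval -2.94 to 1.54), with a limma adjusted p of 0.821. It was 0.30 without 2T-WT replicate 3.

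The second Llgl2 probe, A_55_P2043382 (chr11:115716998-115717057, + strand), lies only 161 bases from the first. It stood at -0.92, -0.73 and -3.02 in 2T-WT and at -1.39, -1.42 and -1.12 in 2T-p190-B-/-, and was above background on all arrays but 2T-WT replicate 3. That array was thus the highest for 1 Llgl2 probe and the lowest for the other. Over the 6 arrays the probes correlated at r = -0.91, a value that includes this array. On the other arrays, the first probe lay within -0.52 to 0.65 and the second within -1.42 to -0.73. The difference was 0.25 (SE 0.82) with all arrays, -0.49 without 2T-WT replicate 3 and -0.57 with normexp. Whether the Llgl2 values of that array go with its Cd79a was not tested. The probes had opposite signs with all arrays, and with normexp both were below 0 (-0.36 for the first).

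Dlg1 encodes a Discs large protein, a membrane-associated guanylate kinase scaffold. Its probe A_55_P1957900 (chr16:31871872-31871931, + strand) was above background on every array, at 0.05, 0.36 and 1.21 in 2T-WT and at -0.64, 1.59 and -0.35 in 2T-p190-B-/-. The 2T-p190-B-/- arrays held both the highest and the 2 lowest values. The difference was -0.34 (SE 0.83), about that of the median probe. It was -0.004 without 2T-WT replicate 3, whereas leaving out 2T-p190-B-/- replicate 1 gave 0.08 and leaving out replicate 2 of that group gave -1.03.

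The Dlg1 probe in the guanylate kinase-like domain (chr16:31863262-31863321, + strand) had the smallest adjusted p of the members. It stood at -1.33, -3.70 and -3.14 in 2T-WT and at -3.16, -3.65 and -4.69 in 2T-p190-B-/-. It was above background on 3 arrays, 2 of 2T-WT and 1 of 2T-p190-B-/-. One array of each genotype stood apart, 2T-WT replicate 1 as the highest and 2T-p190-B-/- replicate 3 as the lowest. On the latter the probe was not above background (processed signal 9.75). The difference was -1.11 (SE 0.86, 95% interval -3.10 to 0.88), with a limma adjusted p of 0.676 and an exact two-sided permutation p of 0.4. These arrays are also the ones alone on their slides, and within slide 2 the difference was 0.01. It was -0.41 without 2T-WT replicate 1 and -1.32 without 2T-WT replicate 3. Leaving out 2T-p190-B-/- replicate 3 gave -0.68. Over the 6 arrays, the 2 Dlg1 probes correlated at r = -0.01.

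Scrib and Llgl1 could not be compared. The probe of Scrib (chr15:75877616-75877675, - strand), the scaffold after which the module is named, was above background on 2T-p190-B-/- replicate 2 alone, with a processed signal of 128 against 3.25 to 13.2 on the other 5 arrays. The lowest signal that counted as well above background differed between arrays, from 11.9 to 44.0, so that no fold is given. The probe of Llgl1 (chr11:60527620-60527679, + strand), the other mouse Lethal giant larvae gene, was above background on no array, with processed signals of 2.48 to 10.4. Its GC content is 15%. At these signals, neither gene can be called absent from HSC.

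Across the 11 member probes, every array held at least 1 extreme value. Replicates 1 to 3 had the highest value for 3, 1 and 4 probes in 2T-WT and for 2, 1 and 0 in 2T-p190-B-/-. They had the lowest for 1, 3 and 2 probes in 2T-WT and for 3, 0 and 2 in 2T-p190-B-/-. The same count over all probes is not given here, and 60.8% of all probes tested had a difference below 0. Among the 6 probes above background on every array, 15 pairs can be formed, of which 7 had a positive and 8 a negative Pearson's r over the 6 arrays (-0.80 to 0.78, median -0.16). Of the 7 pairs within the Par and aPKC genes or within the Scribble module, 4 were positive and 3 negative, and of the 8 pairs between them 3 were positive and 5 negative.

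The probes whose pattern was most like each member were taken from the 13748 probes above background on every array, by Pearson's r over the 6 arrays. They were Ulbp1 for Pard3 (r = 0.996), Krt10 for Pard6a (r = 0.989), Cldn18 for Prkci (r = 0.988), Dtnbp1 for Prkcz (r = 0.993), Gm4727 for Llgl2 (r = 0.995) and Ankrd33b after Gm6835 for Dlg1 (r = 0.989 and 0.991). With 6 arrays and this many probes, such values describe the arrays and are not tested. None of these nearest probes belonged to another member gene, but only 6 of the 13748 probes compared were member probes.

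Genes that work with the complexes were examined from a list of 45 partners, each represented by the brightest of its probes that could be tested. The list covers small GTPases, the Crumbs complex, Par1 and Lkb1 kinases, spindle orientation proteins, Numb and planar polarity proteins. Of the 45, 31 were tested, 6 were above background on 1 or 2 arrays and 8 on none. In limma, 0 of 31 partners had an adjusted p under 0.05 (adjusted p 0.637 to 0.975), and 0 had an unadjusted p under 0.05. The difference was above 0 for 12 partners and below 0 for 19, with a median of -0.55, which is -0.22 from the median of all probes. Without 2T-WT replicate 3, the median partner was 0.06 above that of all probes.

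**Figure D4:**
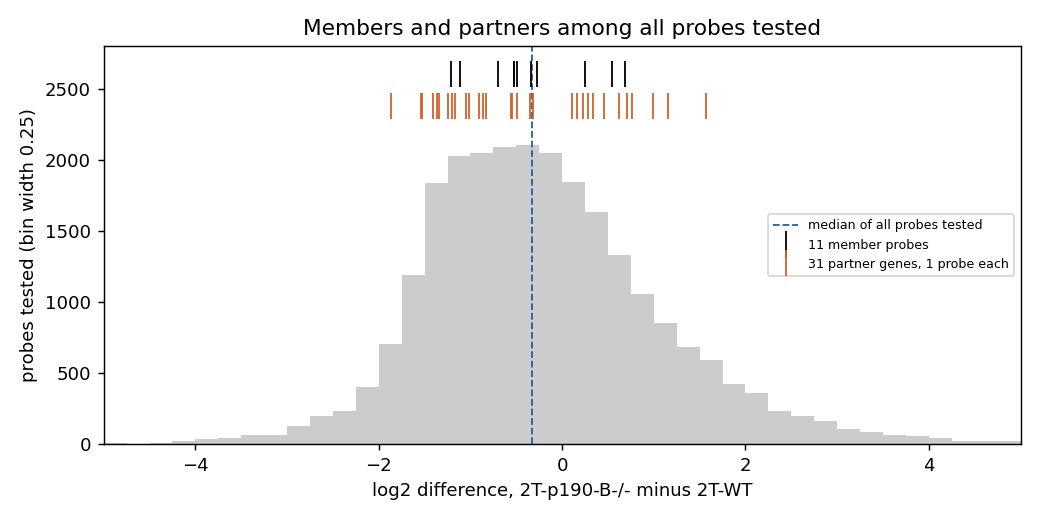
Number of probes tested (y axis) by the log2 difference between 2T-p190-B-/- and 2T-WT (x axis, drawn from -5 to 5), with the 11 member probes and 31 partner genes as marks at the top. The dashed line is the median of all probes tested, -0.33, and both sets spread to either side of it.

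Cdc42, the GTPase that activates the Par complex, stood at -4.46, -3.64 and -1.09 in 2T-WT and at -3.73, -3.60 and -3.32 in 2T-p190-B-/-. Only 2T-WT replicate 3 was clearly apart, and the difference was -0.49 (SE 0.95). The Cdc42 probe was above background on only 2 2T-WT and 2 2T-p190-B-/- arrays, so this difference is partly one between background readings. Rac1, a related GTPase, stood at -2.55, -2.32 and -0.85 in 2T-WT and at -4.11, -3.28 and -2.96 in 2T-p190-B-/-. All 2T-p190-B-/- arrays were below all 2T-WT arrays, with a difference of -1.54 (SE 0.77) and a limma adjusted p of 0.64. The Rac1 probe was above background on 3 2T-WT but only 2 2T-p190-B-/- arrays, so the order includes a background reading. Rhoa, the GTPase on which p190-B is best known to act, was above background on no array. Tiam1, an activator of Rac that binds Par3, differed by -1.34 (SE 0.98), with overlapping groups.

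Inadl, which encodes the Crumbs complex scaffold Patj, stood at 0.28, 0.68 and 2.69 in 2T-WT and at -1.02, -0.75 and -0.18 in 2T-p190-B-/-. The groups did not overlap, and the difference was -1.87 (SE 0.84, limma adjusted p 0.64). This was 1 of 5 Inadl probes, and its highest value was that of 2T-WT replicate 3. Pard3b, a relative of Pard3, had the largest difference in the other direction, at -2.26, -1.22 and -0.09 in 2T-WT and 0.54, -0.24 and 0.84 in 2T-p190-B-/-. Its groups overlapped by 1 array each, and the difference was 1.57 (SE 0.80, limma adjusted p 0.64). Crb3, a Crumbs protein, differed by -0.55 (SE 1.00), and was above background on 3 2T-WT and 2 2T-p190-B-/- arrays. Numb, the fate determinant, differed by 0.11 (SE 0.91), and Stk11, which encodes the kinase Lkb1, by 0.16 (SE 0.94). Stk11 was above background on only 1 2T-WT and 2 2T-p190-B-/- arrays.

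Of the 31 partners, 8 had groups without overlap. For 7 of the 31 (22.6%), the 2T-p190-B-/- arrays were lower, against 11.5% of all probes tested. These were Rac1, Inadl, Plk1, Numa1, Vangl2, Celsr2 and Prickle2, and Cab39 was the 1 partner with 2T-p190-B-/- higher. All but Rac1 and Inadl are named after their values were seen. The share depended on the scaling, with 5 lower under quantile normalization (9.28% of all probes) and 9 under normexp (19.9% of all probes). Under normexp, the members too had 3 probes lower without overlap (Pard3, Llgl2 and Dlg1) and 0 higher. Prickle2, a planar polarity gene, was the 1 partner past the 2-fold threshold of the gene lists, with a difference of -1.25 (SE 0.68, limma adjusted p 0.64). That threshold was passed in the same direction by 4.1% of all probes.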

How the data were processed

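Sample titles gave the groups and replicate numbers. For each array, the authors deposited its Feature Extraction file (Agilent Feature Extraction 10.5.1.1, intensity on a linear scale, background-subtracted and detrended, not scaled between arrays) and a table of the same intensity divided by 1 number per array. RNA was processed, amplified and Cy3-labelled by a service company. Amplification and low input can add spread to dim probes. Probe coordinates are those in the files (mm9).

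Control and outlier spots (296 to 509 per array) were removed, spots of a probe were averaged, and log2 signals were centred on the 75th percentile of each array. limma 3.58.1 in R 4.3.3 compared the groups without covariates over 25159 probes, with Benjamini-Hochberg adjustment, after being tested on simulated data. Of all probes, 30307 were named through the RefSeq table of GRCm38.p6, and 0 probes of another name mapped to a member. Alternatives were quantile and normexp normalization (offset 50), other filters, the deposited table, slide or replicate as a block, another variance model, the methods' t-test and leaving out each array. All members were named, as were their nearest probes and 10 chosen partners where measured. The members and lists were chosen with earlier results of these data known. The study's legend speaks of independent mice and isolations, but which mice each array holds is not given, so p-values measure the spread between these samples. The number of arrays limits the precision. The value of 1 marker gene is not reported here.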

Additional observations from a re-analysis of the deposited data

How the results depend on the processing

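The count of member probes and of partners with an adjusted p under 0.05 was 0 under all 16 alternatives, of which 15 were limma fits and 1 the methods' t-test with adjustment. The median member difference was -0.49. It was -0.20 with slide as a block or with slide 2 alone, where the median of all probes was -0.47. With 1 array left out, it ranged from -0.47 to -0.081 (-0.081 without 2T-WT replicate 3, -0.12 without 2T-p190-B-/- replicate 1). The other settings gave -0.52 to -0.31. Less the median of all probes, it was -0.16. It turned to 0.10 with normexp, 0.02 with no filter on dim probes, 0.14 with probes above background on all 6 arrays, 0.27 with slide as a block or slide 2 alone and 0.16 without 2T-WT replicate 3, and was 0.22 or 0.17 when replicate 1 or 3 of 2T-p190-B-/- was removed. The count past the threshold of the study's gene lists was 1 in place of 0 with normexp (Pard3, A_55_P1985012), and 0 to 1 when 1 array was left out (Prkcz without 2T-WT replicate 1). Directions reversed with normexp for Prkci (0.039) and Llgl2 A_55_P2043382 (-0.57), and with the slide as a block or slide 2 alone for Pard3 A_55_P1985025 (0.16) and Dlg1 A_51_P101858 (0.015). Leaving out 1 array also reversed Pard3 A_55_P1985015 (-2.27 to 0.14), Pard3 A_55_P1985025 (-1.71 to 0.29), Pard6g (-1.14 to 0.57), Llgl2 A_51_P348749 (-1.39 to 0.30), Llgl2 A_55_P2043382 (-0.49 to 0.66) and Dlg1 A_55_P1957900 (-1.03 to 0.081). The cause of these changes was not tested. Pard6a, Prkcz A_52_P600822 and Pard3 A_55_P1985012 kept their direction under every alternative run on them.

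Same-numbered arrays did not deviate together (r 0.01, 0.02 and 0.09 over probes), so the numbers were not taken as pairs. With the replicate block, the member median stayed at -0.49 and the count at 0. A signal near background on part of the arrays limits 5 of the 11 member probes, and 6 further member probes could not be tested.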
